A study of Canis lupus familiaris with 6 samples.

Results

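The genes described here are 41 symbols of hypoxia response and glycolysis, chosen by name: 20 regulators and targets of the hypoxia-inducible factors (HIF) and 21 genes of glucose transport, glycolysis and lactate export. A symbol was taken where it stood in the gene identifier of the deposited tables, and 36 of the 41 did, among 30951 gene rows of which 18011 carry a symbol. The 36 are 19 of the HIF genes and 17 of the glycolysis genes. BNIP3L, ALDOA, PGAM1, PKM and LDHA matched no row and were not analysed here. All 36 had enough counts to be tested, among 12270 genes tested in all.

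The libraries come from CMM12 and CMM2, which are cell lines of canine melanoma. The CMM12 podoplanin knockout (KO) group has 2 libraries, from the KO lines numbered 1 and 2, and the CMM12 control, of genotype WT, has 1 library. The CMM2 podoplanin KO group likewise has 2 libraries and the CMM2 control, also WT, has 1 library, so each line has 1 control that both of its KO libraries share. Podoplanin (PDPN) is a mucin-like glycoprotein of the cell surface, and the comparison asks what its loss does to the RNA of these cells. How the knockouts were made, whether a KO line is 1 clone and what the control cells went through are not given in the sources used here. Nor are the oxygen and glucose of the cultures, and nothing in the labels says that libraries of a group are separate cultures. The tests therefore weigh differences against the spread between these libraries, which may be technical or lie between the KO lines numbered 1 and 2.

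HIF is a transcription factor made of an oxygen-regulated alpha subunit, HIF1A or EPAS1, and a stable partner. With oxygen present, prolyl hydroxylases of the EGLN family mark the alpha subunit for destruction, so HIF is regulated mainly at the protein and not at the RNA level. Stabilised HIF raises transcription of genes for glucose uptake, glycolysis, lactate export, acid handling, blood vessel growth and mitochondrial turnover, and many tumour cells run glycolysis at a high rate with oxygen present.

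The libraries held 9732927 to 11807835 counts, of which the 36 genes took 1.25% to 1.75%. PDPN had 15.2 and 9.98 CPM, counts relative to library size, in the CMM12 KO libraries against 87.8 CPM in the control, and 5.59 and 5.58 CPM in the CMM2 KO libraries against 20.2 CPM in the control. The log2 fold change of PDPN across lines was −2.36 ± 0.28 (SE), which edgeR did not call with its low-count filter (adjusted p = 0.288) and did without it (adjusted p = 0.00546). DESeq2 called it as well (adjusted p = 4.21e-08, with 4.21e-08 to 1 over all alternatives). CPM here are scaled by TMM factors and serve to compare libraries, while TPM, transcript shares that allow for gene length, serve to compare genes. Of 7 melanocyte markers, SOX10, MLANA, TYR and DCT stayed under 1 CPM in every library, and the sum of all 7 was 20.4 to 33.1 CPM, most of it MITF. Leukocyte and endothelial markers summed to at most 2.77 CPM. A list of 4 fibroblast or smooth muscle genes summed to 2999 and 4295 CPM in the CMM12 KO libraries against 5977 CPM in the control, and to 2569 and 6122 CPM in the CMM2 KO libraries against 1167 CPM in the control. COL1A1 and COL1A2 carried these sums, while PDGFRB was above the control in both CMM12 KO libraries, at 5.93 and 10.5 CPM against 3.11 CPM, and ACTA2 lay on either side of it, at 108 and 4.01 CPM against 9.15 CPM. The 3 epithelial markers matched summed to 4.47 and 4.31 CPM in the CMM12 KO libraries against 24.2 CPM in the control, with KRT14 at 0.0912 and 0.979 CPM against 17.7 CPM, and had 0 counts in every CMM2 library, so their sum was lower in both CMM12 KO libraries than in the control and differed between the lines. The part of these markers in the results below was not tested. In such bulk RNA, fewer cells of a kind and less RNA per cell cannot be told apart.

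Among the glycolytic genes the level differed widely by step. The 17 genes summed to 14015 and 13924 TPM in CMM12 KO 1 and KO 2 against 11311 TPM in the CMM12 control, and to 16617 and 11611 TPM in CMM2 KO 1 and KO 2 against 14414 TPM in the CMM2 control. GAPDH, which oxidises glyceraldehyde-3-phosphate, had the highest level, at 6159 and 6378 TPM in the CMM12 KO libraries against 5389 TPM in the control, and 10014 and 6527 TPM in the CMM2 KO libraries against 8593 TPM in the control. GAPDH was the one member with fractional counts, which RSEM gives where reads fit several loci, so its values are uncertain. Enolase 1 (ENO1), which forms phosphoenolpyruvate, followed at 4431 and 4007 TPM in the CMM12 KO libraries against 3128 TPM in the control, and 3333 and 2370 TPM in the CMM2 KO libraries against 2981 TPM in the control. The KO libraries of CMM12 were above their control for the sum, GAPDH and ENO1 alike, while in CMM2 the control lay between KO 1 and KO 2 for all of these.

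Where several genes encode the same step, the gene with the larger share differed by line for the glucose transporters and the collagen prolyl hydroxylases and, in CMM12, by genotype for the lactate transporters. Of the summed TPM of the glucose transporters SLC2A1 and SLC2A3, SLC2A1 made up 32.3% and 37.6% in the CMM12 KO libraries against 36.3% in the control, and 62.4% and 63.8% in the CMM2 KO libraries against 50.9% in the control. SLC2A3 thus had the larger share of this sum in every CMM12 library and SLC2A1 in every CMM2 library, and other glucose transporter genes were not included. Hexokinases trap glucose in the cell, and HK1 made up 71.8% and 61.1% of HK1 and HK2 in the CMM12 KO libraries against 60.0% in the control, and 72.6% and 72.2% in the CMM2 KO libraries against 75.1% in the control. The platelet-type phosphofructokinase gene PFKP supplied 50.1% and 59.3% of the phosphofructokinase TPM in the CMM12 KO libraries against 50.1% in the control, and 65.3% and 57.6% in the CMM2 KO libraries against 66.2% in the control. The monocarboxylate transporter SLC16A3 (MCT4), which exports lactate, stood against SLC16A1 (MCT1) at 60.0% and 62.9% of their sum in the CMM12 KO libraries and 32.5% in the control. In CMM2 that share was 61.7% in KO 1 and 44.5% in KO 2 against 45.7% in the control, so the CMM12 control and KO libraries lay on opposite sides of 50% and the CMM2 libraries did not split by genotype. The shares of HK1, PFKFB3, PDK1, PDK3, EGLN1, EGLN3, ENO2 and CA12 in their families did not overlap between the lines either. No background was taken for shares. By level, 24.6% of all genes tested were higher and 21.5% lower in CMM12 without overlap. The gap was narrow for some genes. The highest CMM12 and lowest CMM2 shares were 71.8% and 72.2% for HK1, 45.6% and 46.1% for EGLN1, and 35.7% and 36.7% for PDK1. PFKFB3 made up 81.7% to 84.7% of PFKFB3 and PFKFB4 in CMM12 against 68.5% to 79.2% in CMM2, and EGLN3 made up 7.44% to 9.07% of the EGLN genes in CMM12 against 2.39% to 2.93% in CMM2. HIF1A made up 90.7% to 98.4% of HIF1A and EPAS1 in all libraries, and CA9 made up 98.3% to 99.9% of CA9 and CA12.

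**Figure D1:**
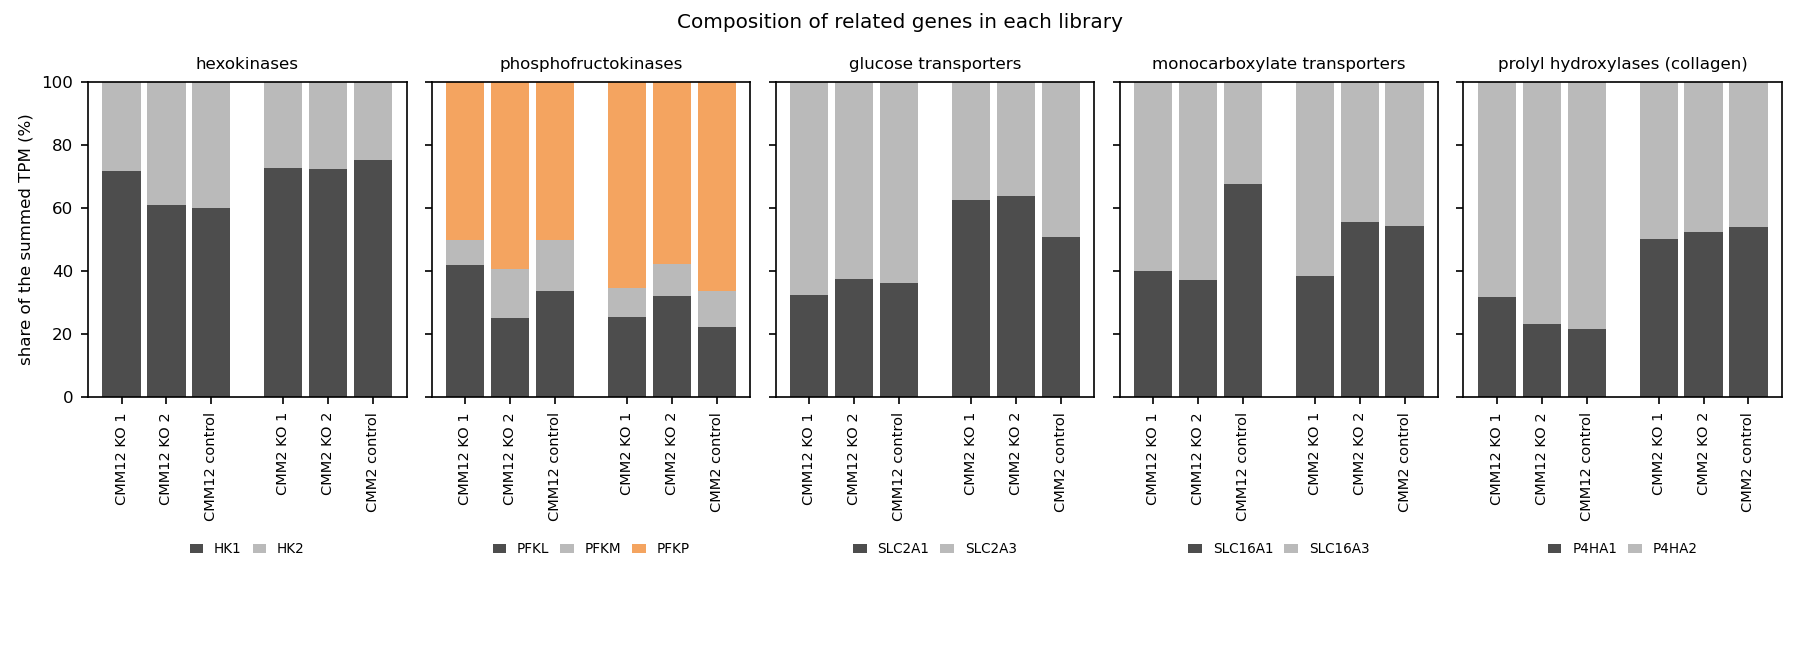
Share of each gene in the summed TPM of its family (vertical axis, %) in each library (horizontal axis), KO libraries left of the control in each line. SLC16A3 takes 60.0% and 62.9% in the CMM12 KO libraries against 32.5% in the CMM12 control, and SLC2A1 takes at least 50.9% in every CMM2 library and at most 37.6% in every CMM12 library.

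The first comparison asked whether the genes shifted with podoplanin loss in both lines. None of the 36 was called by edgeR over all genes (background 0% of genes called, adjusted p under 0.05), nor by DESeq2 (background 0.0733%), and 5 of 36 had an unadjusted edgeR p under 0.05, where 4.03% of all genes did. These were BNIP3, CA9, P4HA1, SLC16A3 and ALDOC. In 7 of 36 genes all 4 KO libraries lay above the control of their line, against 10.5% of all genes, namely CA9, BNIP3, P4HA1 and P4HA2 among the HIF genes and SLC2A1, ALDOC and PGK1 among the glycolysis genes. All 4 lay below it for HIF1A and ADM, 2 of 36, against 10.6% of all genes. The median log2 fold change was 0.16 for the HIF genes and 0.13 for the glycolysis genes, against 0.01 for all genes tested, and 28 of the 36 were above 0, against 52.0% of all genes. Without the control of a line, only the other line informs this effect, so the medians become those of the other line. Without the CMM12 control the HIF median was 0.30 and the glycolysis median 0.04, and without the CMM2 control they were 0.07 and 0.43. Since both KO libraries of a line share its control, a low or high control alone puts both on the same side.

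Of the regulators, HIF1A had 313 and 455 CPM in the CMM12 KO libraries against 497 CPM in the control, and 364 and 366 CPM in the CMM2 KO libraries against 399 CPM in the control. Its log2 fold change across lines was −0.25 ± 0.19 (SE; edgeR adjusted p = 0.987). CMM12 KO 1 stood lowest and the other KO libraries were close to their controls. EPAS1, the HIF-2 alpha subunit, had 23.5 and 8.91 CPM in the CMM12 KO libraries against 28.3 CPM in the control, and 7.95 and 4.35 CPM in the CMM2 KO libraries against 5.06 CPM in the control. CMM12 KO 2 was the one library in which EPAS1 was far from its control, and in CMM2 the control lay between the KO libraries. The hydroxylase gene EGLN1 ranged from 64.6 to 108 CPM over the 6 libraries with KO libraries on either side of the control in CMM12. EGLN3, a hydroxylase that HIF itself induces, had 8.03 and 8.22 CPM in the CMM12 KO libraries against 9.67 CPM in the control, and 2.88 and 2.18 CPM in the CMM2 KO libraries against 2.58 CPM in the control, so it followed the line and not the genotype.

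BNIP3, a HIF target that drives removal of mitochondria, had the smallest p of the members across lines. It had 229 and 199 CPM in the CMM12 KO libraries against 100 CPM in the control, and 312 and 231 CPM in the CMM2 KO libraries against 184 CPM in the control. Every KO library was above its control, and the log2 fold change across lines was 0.82 ± 0.21 (SE; edgeR adjusted p = 0.987). DESeq2 gave an adjusted p of 0.13, the lowest of the alternatives, which ran up to 1. CA9, a carbonic anhydrase of the cell surface that buffers acid, had 538 and 374 CPM in the CMM12 KO libraries against 341 CPM in the control, and 576 and 539 CPM in the CMM2 KO libraries against 353 CPM in the control. The controls of the lines were close to each other and CMM12 KO 2 differed little from its control. The log2 fold change of CA9 across lines was 0.54 ± 0.20 (SE; edgeR adjusted p = 0.987).

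P4HA1 and P4HA2 encode catalytic subunits of the prolyl hydroxylase that stabilises collagen. P4HA1 had 275 and 204 CPM in the CMM12 KO libraries against 153 CPM in the control, and 183 and 247 CPM in the CMM2 KO libraries against 158 CPM in the control. Across lines its log2 fold change was 0.55 ± 0.21 (SE; edgeR adjusted p = 0.987). P4HA2 had 633 and 723 CPM in the CMM12 KO libraries against 592 CPM in the control, and 193 and 240 CPM in the CMM2 KO libraries against 143 CPM in the control. The KO libraries of both lines were above their controls, by less in CMM12, and the log2 fold change was 0.39 ± 0.19 (SE; edgeR adjusted p = 0.987). The collagen gene COL1A2, of the fibroblast list, did not follow this in CMM12, with 2880 and 4207 CPM in the KO libraries against 5286 CPM in the control. In CMM2 it was above the control, with 871 and 3897 CPM in the KO libraries against 156 CPM in the control.

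**Figure D2:**
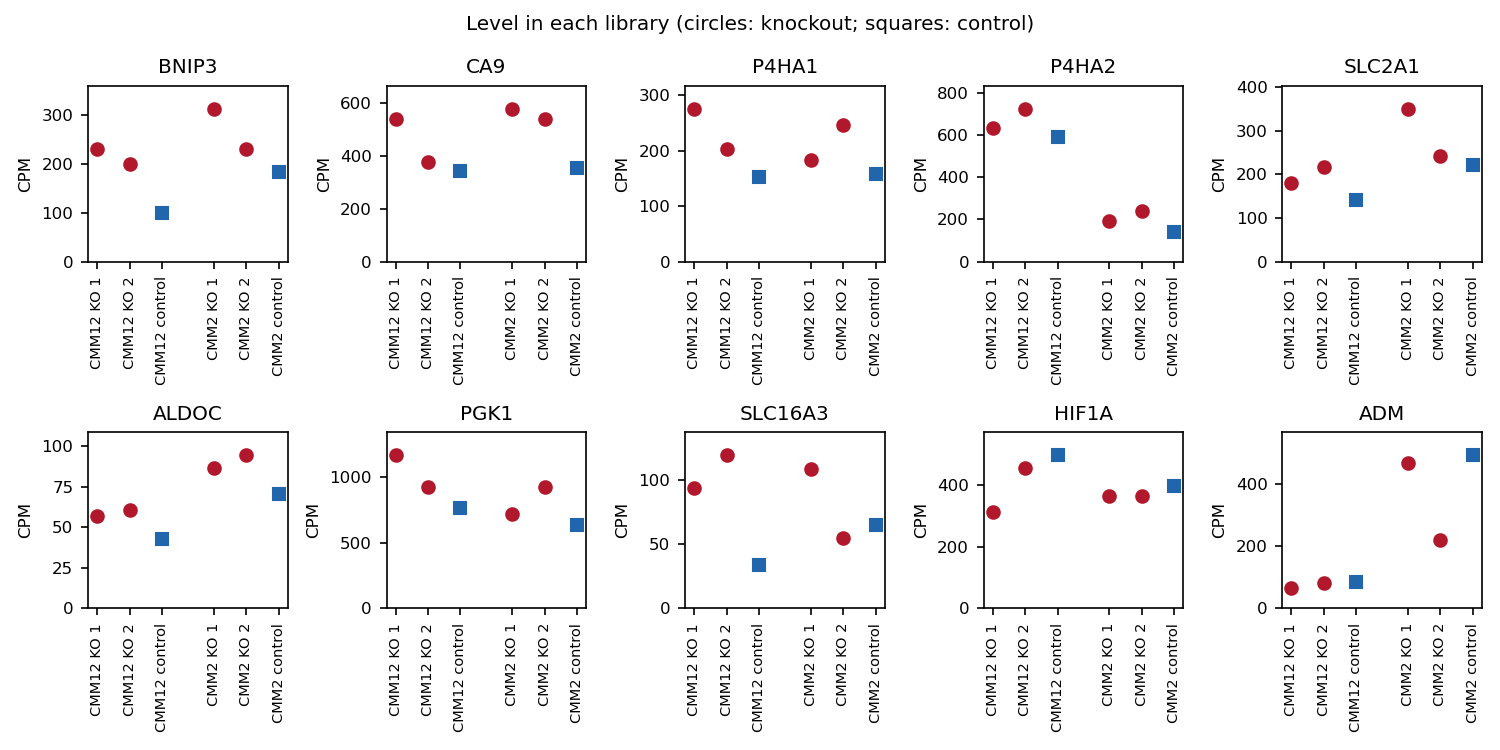
CPM (vertical axes, linear, starting at 0) of 10 genes in each library (horizontal axes), with circles for KO libraries and squares for controls. BNIP3, CA9, P4HA1, P4HA2, SLC2A1, ALDOC and PGK1 have all 4 circles above the square of their line, HIF1A and ADM have all 4 below, and SLC16A3 has CMM2 KO 2 below.

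Of the glycolysis genes, SLC2A1 (GLUT1), the basal glucose importer, had 180 and 217 CPM in the CMM12 KO libraries against 141 CPM in the control, and 350 and 243 CPM in the CMM2 KO libraries against 222 CPM in the control. Across lines its log2 fold change was 0.45 ± 0.20 (SE; edgeR adjusted p = 0.987). Aldolase C (ALDOC), which splits fructose-1,6-bisphosphate, had 56.7 and 60.8 CPM in the CMM12 KO libraries against 42.5 CPM in the control, and 86.8 and 94.2 CPM in the CMM2 KO libraries against 70.3 CPM in the control. The KO libraries of each line were close together for ALDOC, and the log2 fold change was 0.42 ± 0.16 (SE; edgeR adjusted p = 0.987). PGK1, the first enzyme of the pathway to yield ATP, had 1165 and 928 CPM in the CMM12 KO libraries against 763 CPM in the control, and 722 and 923 CPM in the CMM2 KO libraries against 631 CPM in the control. For PGK1 the log2 fold change was 0.42 ± 0.19 (SE; edgeR adjusted p = 0.987). No pathway gene lay below its control in all 4 KO libraries.

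In CMM12 most glycolysis genes lay above the control in both KO libraries, and no member passed the test. Both KO libraries lay above the control in 12 of 17 glycolysis genes and in 6 of 19 HIF genes, together 18 of 36, against 35.6% of all genes. Both lay below it in 6 of 36, against 34.2% of all genes, and among the glycolysis genes that was ENO2 alone. The median log2 fold change was 0.43 for the glycolysis genes and 0.07 for the HIF genes, against 0.02 for all genes. On the TPM scale that of the HIF genes was −0.003, against −0.04 for all genes. Neither edgeR (background 0.00815%) nor DESeq2 (background 0.367%) called a member, and BNIP3 and SLC16A3, 2 of 36, had an unadjusted edgeR p under 0.05, against 5.99% of all genes. As the 17 values share 1 control library, its own deviation enters all of them.

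SLC16A3 showed the widest gap in CMM12, with 94.4 and 120 CPM in the KO libraries against 33.7 CPM in the control. Its log2 fold change there was 1.66 ± 0.45 (SE; edgeR adjusted p = 0.702), and DESeq2 gave an adjusted p of 0.0606, within a range of 0.0606 to 0.818 over the alternatives. For BNIP3 the log2 fold change in CMM12 was 1.09 ± 0.29 (SE; edgeR adjusted p = 0.702), and DESeq2 gave an adjusted p of 0.063, within a range of 0.063 to 0.818. Both genes therefore lay just outside the threshold with DESeq2 and far outside it with edgeR. SLC2A3 (GLUT3), a high-affinity glucose importer, had 259 and 247 CPM in the CMM12 KO libraries against 170 CPM in the control, a log2 fold change of 0.57 ± 0.31 (SE; edgeR adjusted p = 0.852). PFKP had 480 and 506 CPM in the CMM12 KO libraries against 350 CPM in the control, a log2 fold change of 0.50 ± 0.31 (SE; edgeR adjusted p = 0.872).

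The same order held at other steps of the pathway in CMM12. Triosephosphate isomerase (TPI1), which interconverts the triose phosphates, had 1121 and 1304 CPM in the KO libraries against 899 CPM in the control, and HK1 had 380 and 270 CPM in the KO libraries against 230 CPM in the control. The neuronal-type enolase ENO2 ran the other way, with 11.7 and 7.24 CPM in the KO libraries against 13.5 CPM in the control. GPI, which isomerises glucose-6-phosphate, had 849 and 708 CPM in the KO libraries against 759 CPM in the control, and the liver-type phosphofructokinase PFKL had 355 and 191 CPM against 208 CPM. For these last genes the control lay between the KO libraries. PFKFB3 and PFKFB4 make the activator of phosphofructokinase, and their log2 ratios to the control were −0.02 and 0.37 for PFKFB3 and 0.14 and 0.27 for PFKFB4 in KO 1 and KO 2. The remaining log2 fold changes given for CMM12 by edgeR were 0.65 ± 0.32 for P4HA1, 0.44 ± 0.33 for ANKRD37, a small ankyrin-repeat HIF target, 0.42 ± 0.30 for CA9 and −0.80 ± 0.62 for EPAS1 (SE). Those of the glycolysis genes were 0.49 ± 0.31 for SLC2A1 and 0.47 ± 0.24 for ALDOC, and the adjusted p of all of these was 0.843 to 0.894.

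**Figure D3:**
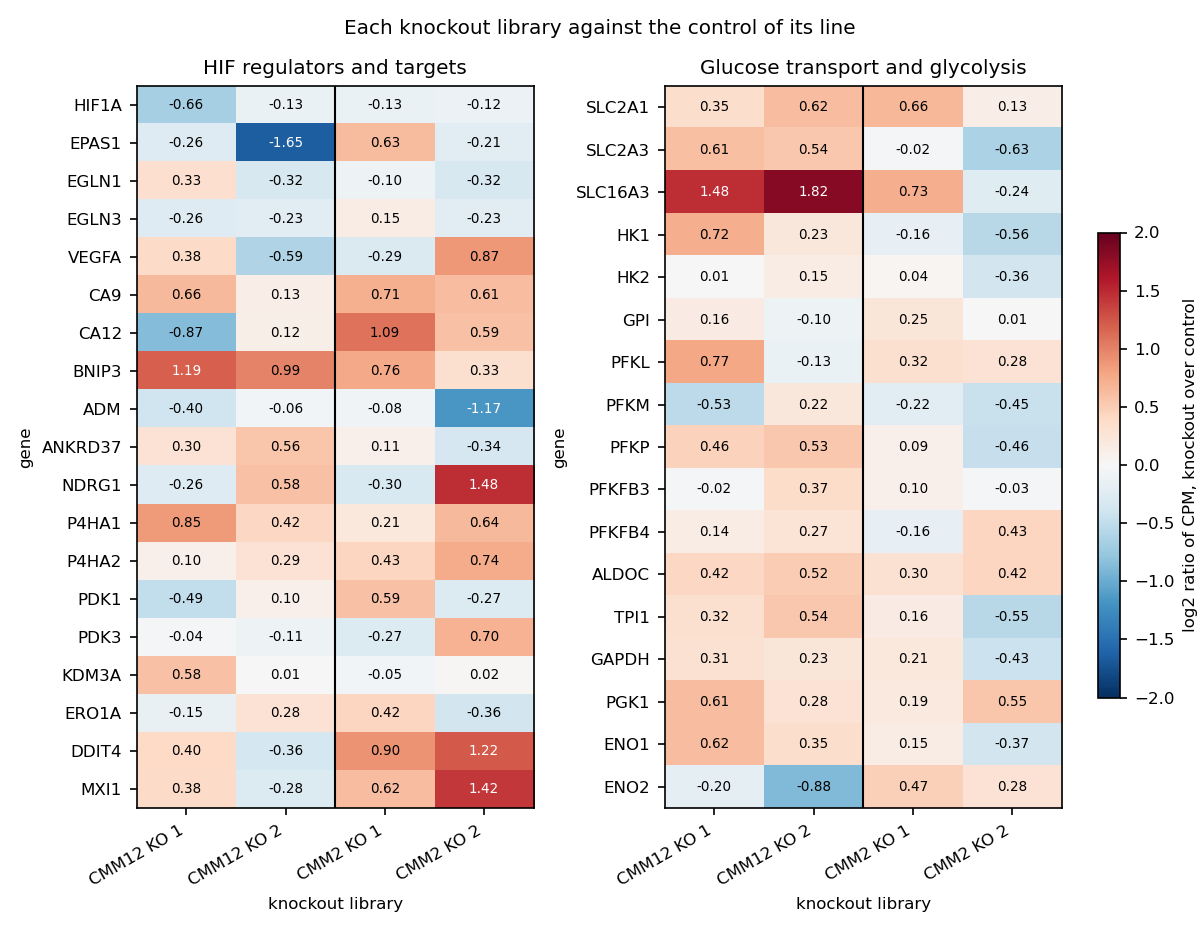
Log2 ratio of CPM (colour and printed value) of each KO library (columns) over the control of its line for the 36 genes (rows), HIF genes on the left and glycolysis genes on the right. The CMM12 columns of the glycolysis panel are mostly above 0, with SLC16A3 at 1.48 and 1.82, while in the CMM2 KO 2 column GAPDH, TPI1, ENO1, HK1, HK2 and PFKP lie below 0.

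In CMM2 the KO libraries disagreed with each other on glycolysis. The median log2 ratio to the control over the 17 genes was 0.16 in KO 1 and −0.24 in KO 2, with 13 and 7 of 17 genes above 0, so the fitted median of 0.04 averages unlike libraries. TPI1 had 1503 CPM in KO 1 and 914 CPM in KO 2 against 1342 CPM in the control, and PFKP had 587 and 400 CPM against 550 CPM in the control. HK1 had 520 and 396 CPM in the CMM2 KO libraries against 582 CPM in the control. The muscle-type phosphofructokinase gene PFKM had 97.5 and 83.3 CPM in the CMM2 KO libraries against 114 CPM in the control. Both were below the control in both KO libraries. HK2 ranged from 118 to 155 CPM over the 6 libraries and PFKFB4 from 17.4 to 26.5 CPM. Both CMM2 KO libraries lay above the control in 13 of 36 members, against 30.1% of all genes, and below it in 6 of 36, against 30.9% of all genes.

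Among the HIF genes the smallest p-values in CMM2 belonged to DDIT4 and MXI1. DDIT4 (REDD1), an inhibitor of mTORC1, had 30.7 and 38.4 CPM in the CMM2 KO libraries against 16.3 CPM in the control, a log2 fold change of 1.08 ± 0.42 (SE; edgeR adjusted p = 1). MXI1, a repressor that antagonises MYC, had 15.8 and 27.6 CPM in the KO libraries against 10.2 CPM in the control, a log2 fold change of 1.09 ± 0.49 (SE; edgeR adjusted p = 1). In CMM12 neither gene followed this: DDIT4 had 42.5 and 25.1 CPM in the KO libraries against 32.1 CPM in the control, and MXI1 had 37.4 and 23.7 CPM against 28.7 CPM in the control. No member was called in CMM2 by edgeR (background 0%) or by DESeq2 (background 0.0489%), and DDIT4 alone, 1 of 36, had an unadjusted edgeR p under 0.05, against 1.90% of all genes. The median log2 fold change was 0.30 for the HIF genes, against 0.00 for all genes. Log2 fold changes by edgeR in CMM2 were 0.66 ± 0.30 for CA9, 0.60 ± 0.27 for P4HA2, 0.56 ± 0.29 for BNIP3, 0.42 ± 0.31 for SLC2A1, 0.38 ± 0.29 for PGK1, 0.38 ± 0.36 for ENO2, 0.36 ± 0.24 for ALDOC and −0.35 ± 0.31 for HK1 (SE), each with an adjusted p of 1.

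Several HIF targets split the CMM2 KO libraries. VEGFA, the angiogenic growth factor, had 134 CPM in KO 1 and 299 CPM in KO 2 against 164 CPM in the control. In CMM12 VEGFA had 473 CPM in KO 1 and 240 CPM in KO 2 against 363 CPM in the control, so the KO libraries lay on either side of the control in both lines, with KO 1 the higher in CMM12 and KO 2 in CMM2. NDRG1, a differentiation-related gene that HIF induces, had 82.6 and 149 CPM in the CMM12 KO libraries against 99.3 CPM in the control, and 27.6 and 95.2 CPM in the CMM2 KO libraries against 34.0 CPM in the control. NDRG1 was the higher in KO 2 of each line and below the control in KO 1 of each line. ADM, the vasodilator peptide adrenomedullin, had 65.4 and 82.7 CPM in the CMM12 KO libraries against 86.3 CPM in the control, and 468 and 219 CPM in the CMM2 KO libraries against 493 CPM in the control. For ADM only CMM2 KO 2 stood well below its control. PDK1, a kinase that keeps pyruvate out of the mitochondrial cycle, had 30.5 and 46.2 CPM in the CMM12 KO libraries against 43.0 CPM in the control, and 115 and 62.9 CPM in the CMM2 KO libraries against 76.1 CPM in the control. ERO1A, an oxidase of the endoplasmic reticulum, had 121 and 163 CPM in the CMM12 KO libraries against 134 CPM in the control, and 208 and 120 CPM in the CMM2 KO libraries against 155 CPM in the control. The related kinase gene PDK3 had 35.6 and 34.1 CPM in the CMM12 KO libraries against 36.7 CPM in the control, and 20.3 and 40.0 CPM in the CMM2 KO libraries against 24.5 CPM in the control. Each of these genes except ADM had its control between the KO libraries in at least 1 line. The histone demethylase gene KDM3A stayed between 67.1 and 75.3 CPM in every library but CMM12 KO 1, which had 100 CPM.

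With each KO library set against its own control, without a test, a change of at least 1.5-fold was counted. In CMM12 KO 1, 9 of 36 members were higher (background 12.9%) and 2 lower (background 14.1%), and in CMM12 KO 2, 3 were higher (background 14.7%) and 3 lower (background 13.0%). In CMM2 KO 1, 9 of 36 were higher (background 7.61%) and 0 lower (background 5.34%), and in CMM2 KO 2, 9 were higher (background 17.0%) and 2 lower (background 11.0%). In CMM2 KO 2 all 9 were HIF genes, VEGFA, CA9, CA12, NDRG1, P4HA1, P4HA2, PDK3, DDIT4 and MXI1, and in CMM12 KO 1 there were 6 glycolysis genes, SLC2A3, SLC16A3, HK1, PFKL, PGK1 and ENO1, beside CA9, BNIP3 and P4HA1. The share of members at least 1.5-fold higher was 25% in these libraries and in CMM2 KO 1, and 8.33% in CMM12 KO 2. CA12 was counted as higher in both CMM2 KO libraries on 7 counts in KO 1 and 4 in KO 2 against 2 in the control.

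Whether the knockout effect differed between the lines was tested directly, as the effect in CMM12 minus that in CMM2. No member passed in edgeR (background 0%) or DESeq2 (background 0.179%), and 0 of 36 had an unadjusted edgeR p under 0.05, against 3.84% of all genes. The smallest p-values belonged to SLC16A3, with a difference of 1.34 ± 0.59 on the log2 scale (SE; edgeR adjusted p = 1), SLC2A3, with 0.87 ± 0.44 (SE; edgeR adjusted p = 1), HK1, with 0.85 ± 0.45 (SE; edgeR adjusted p = 1), and DDIT4, with −1.01 ± 0.56 (SE; edgeR adjusted p = 1). Across the 36 genes the log2 fold changes in CMM12 and in CMM2 had a Pearson correlation of −0.004 and a Spearman correlation of 0.010, and 20 of 36 had the same sign. Over all genes the Pearson correlation was −0.001 and 48.4% had the same sign, and genes are not independent replicates. Of the 20 genes with the same sign, 16 were higher and 4 lower in the KO libraries of both lines. Among all 12270 genes tested, 3213 were higher and 2729 lower in both lines.

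**Figure D4:**
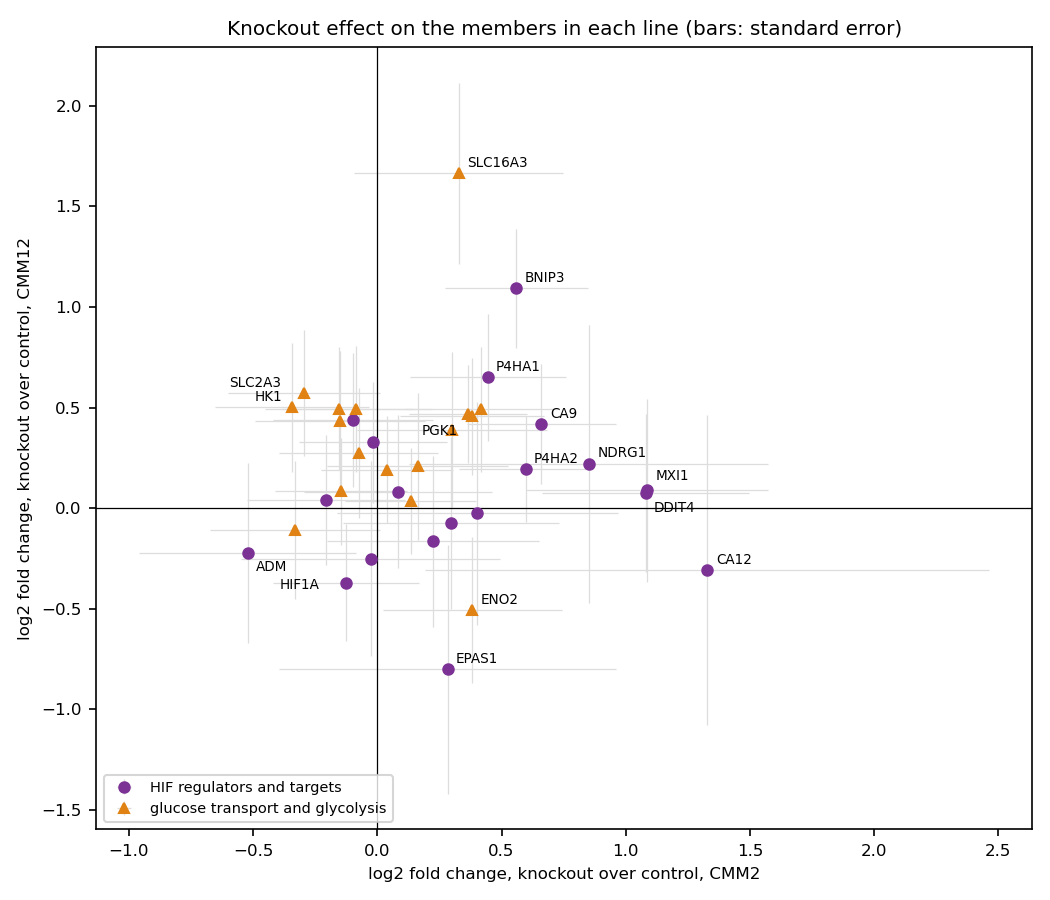
Log2 fold change of KO over control in CMM12 (vertical axis) and in CMM2 (horizontal axis) for the 36 genes, circles for HIF genes and triangles for glycolysis genes, bars for the standard error. SLC16A3 and BNIP3 lie highest, at 1.66 and 1.09 in CMM12, while DDIT4 and MXI1 lie near 0 in CMM12 and at 1.08 and 1.09 in CMM2.

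More members were called between the lines than between genotypes. With genotype as a term, edgeR called 11 of 36 members between CMM12 and CMM2. EPAS1, EGLN3, CA12, P4HA2, SLC2A3 and PFKFB3 were higher in CMM12, 6 of 36 against a background of 14.6%, and ADM, ANKRD37, PDK1, ALDOC and ENO2 were lower, 5 of 36 against a background of 11.2%. The 3 libraries of CMM12 did not overlap with the 3 of CMM2 in the same 6 higher genes (background 24.6%) and in 8 lower genes (background 21.5%), the 5 called and SLC2A1, HK1 and GAPDH. The median log2 fold change was 0.16 for the HIF genes and −0.14 for the glycolysis genes, against 0.04 for all genes. On the TPM scale it was 0.01 for the glycolysis genes against 0.15 for all genes. The glycolysis median thus changed sign but lay below that of all genes on both scales.

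P4HA2 had the smallest adjusted p of the members, with 633 and 723 CPM in the KO libraries and 592 CPM in the control of CMM12, against 193 and 240 CPM in the KO libraries and 143 CPM in the control of CMM2. Its log2 fold change was 1.78 ± 0.18 (SE; edgeR adjusted p = 0.0013). P4HA2 made up 68.3% to 78.4% of the P4HA1 and P4HA2 TPM in CMM12 and 46.0% to 49.8% in CMM2. ADM had 65.4 to 86.3 CPM in CMM12 against 219 to 493 CPM in CMM2, a log2 fold change of −2.31 ± 0.30 (SE; edgeR adjusted p = 0.00254). ENO2 had 7.24 to 13.5 CPM in CMM12 against 45.0 to 62.5 CPM in CMM2, a log2 fold change of −2.33 ± 0.28 (SE; edgeR adjusted p = 0.00231). Despite this, ENO2 made up at most 1.46% of the enolase TPM in any library. These 3 genes kept an adjusted p under 0.05 in all 17 alternatives.

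The oxygen-sensing genes of the contrast were EGLN3 and EPAS1. EGLN3 had 8.03 to 9.67 CPM in CMM12 against 2.18 to 2.88 CPM in CMM2, a log2 fold change of 1.75 ± 0.32 (SE; edgeR adjusted p = 0.00876). EPAS1 had 8.91 to 28.3 CPM in CMM12 against 4.35 to 7.95 CPM in CMM2, a log2 fold change of 1.75 ± 0.46 (SE; edgeR adjusted p = 0.0297). CMM12 KO 2 lay close to the CMM2 libraries for EPAS1. CA12, another surface carbonic anhydrase, had 25, 48 and 50 counts in CMM12 KO 1, KO 2 and control against 7, 4 and 2 counts in CMM2 KO 1, KO 2 and control, a log2 fold change of 3.24 ± 0.64 (SE; edgeR adjusted p = 0.0112) that rests on few counts. PDK1 had 30.5 to 46.2 CPM in CMM12 against 62.9 to 115 CPM in CMM2, a log2 fold change of −1.08 ± 0.28 (SE; edgeR adjusted p = 0.0271). ANKRD37 had 19.5 to 28.9 CPM in CMM12 against 34.2 to 46.6 CPM in CMM2 (edgeR adjusted p = 0.0383). These calls were lost in some alternatives. A fit with 1 library left out has fewer residual degrees of freedom, so a lost call need not rest on that library. With all 6 libraries, limma on log2 TPM gave an adjusted p of 0.0579 to 0.107 for PDK1 and 0.0581 to 0.0865 for ANKRD37. For EPAS1 limma without a filter gave an adjusted p of 0.0803. The call of EGLN3 was lost without the CMM12 control (edgeR adjusted p = 0.0509), and that of CA12 without the CMM12 control (edgeR adjusted p = 0.0611) or CMM12 KO 2 (edgeR adjusted p = 0.0539). EPAS1 lost it without the CMM12 control, CMM12 KO 1, CMM2 KO 2 or the CMM2 control (edgeR adjusted p 0.0587 to 0.138). PDK1 (edgeR adjusted p 0.0629 to 0.0914) and ANKRD37 (edgeR adjusted p 0.0631 to 0.175) lost it without any one library except CMM2 KO 2, and ANKRD37 also with a replicate block by KO number (edgeR adjusted p = 0.0574).

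Of the glycolysis genes, PFKFB3 had 132 to 173 CPM in CMM12 against 86.2 to 94.6 CPM in CMM2, a log2 fold change of 0.70 ± 0.17 (SE; edgeR adjusted p = 0.0206). ALDOC had 42.5 to 60.8 CPM in CMM12 against 70.3 to 94.2 CPM in CMM2, a log2 fold change of −0.66 ± 0.15 (SE; edgeR adjusted p = 0.0171). SLC2A3 had 170 to 259 CPM in CMM12 against 94.5 to 147 CPM in CMM2, a log2 fold change of 0.79 ± 0.24 (SE; edgeR adjusted p = 0.0498). SLC2A1 and HK1 lay just outside the threshold, with 141 to 217 CPM in CMM12 against 222 to 350 CPM in CMM2 for SLC2A1, a log2 fold change of −0.60 ± 0.19 (SE; edgeR adjusted p = 0.0512). For HK1 the levels were 230 to 380 CPM in CMM12 against 396 to 582 CPM in CMM2, a log2 fold change of −0.77 ± 0.24 (SE; edgeR adjusted p = 0.0538). All 5 crossed the threshold on leaving out single libraries. PFKFB3 lost its call without the CMM12 control, CMM12 KO 2, CMM2 KO 1 or the CMM2 control (edgeR adjusted p 0.0658 to 0.0751). ALDOC lost it without any one library except CMM2 KO 2 (edgeR adjusted p 0.0518 to 0.0806), and SLC2A3 without any one KO library (edgeR adjusted p 0.0806 to 0.135). SLC2A1 was called without CMM2 KO 2 (edgeR adjusted p = 0.0202), and HK1 without CMM2 KO 2 (edgeR adjusted p = 0.0262) or CMM12 KO 1 (edgeR adjusted p = 0.0322). A replicate block by KO number also moved SLC2A3 (edgeR adjusted p = 0.0504) and HK1 (edgeR adjusted p = 0.0415) across. With all 6 libraries, SLC2A3 also lost its call with unrounded counts (edgeR adjusted p = 0.0501) and with limma without a filter (adjusted p = 0.0556). ALDOC lost it with limma on log2(TPM + 1) (adjusted p = 0.05). DESeq2 called SLC2A1 (adjusted p = 0.0132) and HK1 (adjusted p = 0.0117), and edgeR without the low-count filter called both (adjusted p = 0.0358 and 0.0249).

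**Figure D5:**
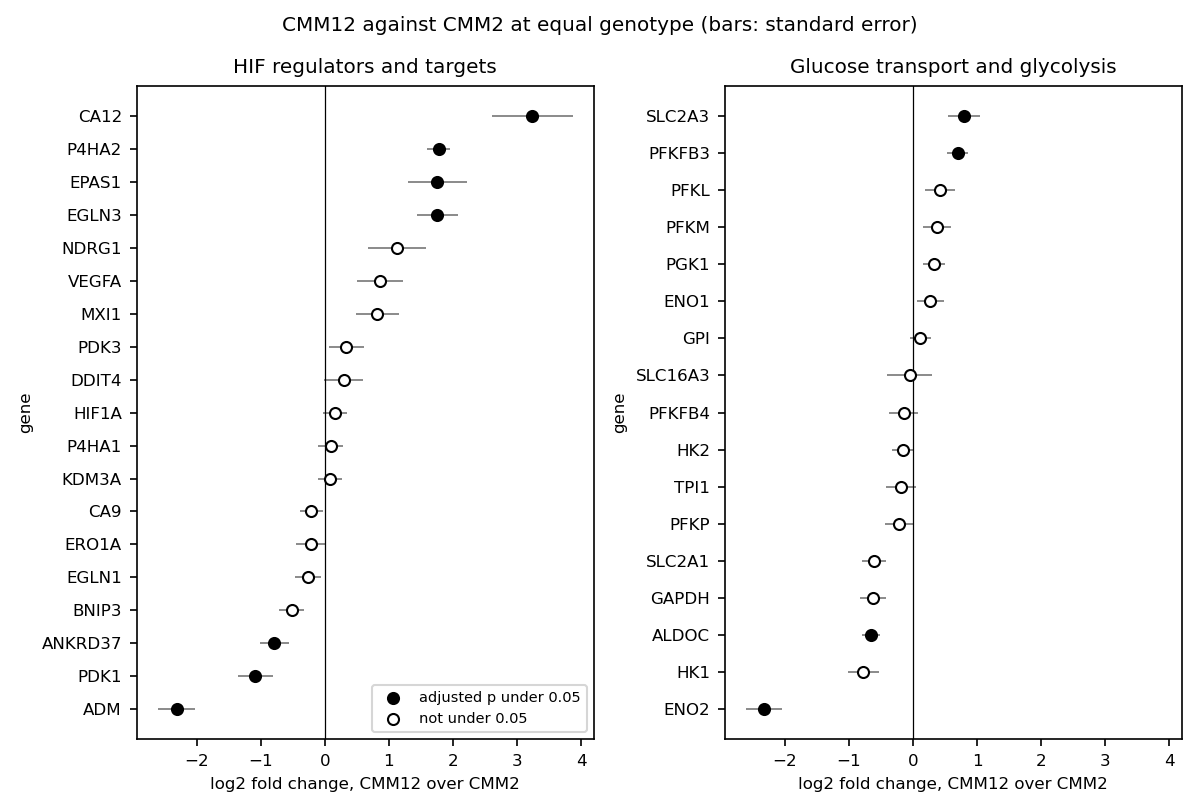
Log2 fold change of CMM12 over CMM2 (horizontal axis) with its standard error (bars) for the HIF genes (left) and the glycolysis genes (right), one per row in order of size. Filled circles mark the 11 genes with an edgeR adjusted p under 0.05, 7 HIF genes and 4 glycolysis genes.

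Other genes of the same pathways were read from 3 further lists. Of 30 other HIF targets 25 were tested, of 17 oxygen-sensing and HIF partner genes 16, and of 32 other genes of glucose, glycogen, lactate and pyruvate use 26. edgeR called 0 of these in every knockout comparison. Across lines 3, 0 and 1 of them, in that order of lists, had an unadjusted edgeR p under 0.05, against 4.03% of all genes. The 3 were KDM4B, EDN1 and KDR, of which EDN1 and KDR had 0 counts in every CMM2 library. DESeq2 called LOXL2, a lysyl oxidase that crosslinks collagen, in the difference between lines. LOXL2 had 75.1 and 117 CPM in the CMM12 KO libraries against 248 CPM in the control, and 170 and 258 CPM in the CMM2 KO libraries against 103 CPM in the control. For LOXL2 the KO libraries were below the control in CMM12 and above it in CMM2, the way COL1A1 and COL1A2 also ran, whose part in this was not tested.

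Around pyruvate and lactate, LDHB, the lactate dehydrogenase subunit that favours lactate use, had 334 and 347 CPM in the CMM12 KO libraries against 455 CPM in the control, and 415 and 463 CPM in the CMM2 KO libraries against 543 CPM in the control. All 4 KO libraries were below their control, with a log2 fold change across lines of −0.36 ± 0.15 (SE; edgeR adjusted p = 0.987). SLC16A1, the partner of SLC16A3 in the shares above, differed less, with 106 and 120 CPM in the CMM12 KO libraries against 122 CPM in the control, and 111 CPM in each CMM2 KO library against 129 CPM in the control. Between the lines edgeR called 4 of the 25 other HIF targets higher in CMM12 (ANGPTL4, FAM162A, KDM4C and KDR) and 2 lower (CITED2 and PLOD2). Of the 16 oxygen-sensing genes it called 3 higher (ARNT2, SIAH1 and SIAH2) and 5 lower (CUL2, ELOB, ELOC, CREBBP and OS9), and of the 26 metabolic genes 3 higher (SLC16A7, PYGL and PC) and 1 lower (PSPH). The shares called higher and lower were 16% and 8% of the other HIF targets, 18.8% and 31.2% of the oxygen-sensing genes, and 11.5% and 3.85% of the metabolic genes, against 14.6% and 11.2% of all genes. CUL2, ELOB and ELOC belong to the ubiquitin ligase that removes hydroxylated HIF alpha, and ELOC had 73.6 to 79.3 CPM in CMM12 against 122 to 146 CPM in CMM2. ARNT2, a possible partner of the alpha subunits, had 18.2 to 22.7 CPM in CMM12 against 3.44 to 7.0 CPM in CMM2. SLC16A7 (MCT2), a high-affinity monocarboxylate importer, had 6.47 to 12.4 CPM in CMM12 and 0 counts in every CMM2 library.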

How the data were processed

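Per the labels' protocols, total RNA came from the RNeasy mini kit, and 1 ug of it went into each NEBNext Ultra library. The submitters' processing notes name RSEM 1.3.3, STAR 2.7.3a and CanFam3.1. No source used here gives the strand setting, so antisense and near-identical genes may share reads. The authors deposited unscaled expected counts for each gene and library, and a TPM table beside them, per the file headers.

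Expected counts were rounded, which changed 3.22% to 3.63% of the values of a library. The test was edgeR 4.0.16 in R 4.3.3 (quasi-likelihood, TMM, filterByExpr, Benjamini-Hochberg adjustment over 12270 genes, threshold 0.05). The knockout effect across lines and the line contrast came from additive terms for line and genotype (3 residual degrees of freedom). The residual of that model also holds any difference of the knockout effect between the lines. Effects within a line and their difference came from 4 group means (2 residual degrees of freedom), where each lone control is assumed to vary like the KO pairs. Log2 ratios of single libraries used a prior count of 2. Libraries of the same line differed by more than sampling noise in every pair (chi-square over its degrees of freedom 13.4 to 54.6). Counting error is small at these depths except for genes of few counts.

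The members and all gene lists were chosen with earlier results of these data known. Folds are given for PDPN, for the 5 HIF and 5 glycolysis genes with the smallest p among those with all KO libraries on the same side, for 6 of each without overlap between lines, for 4 in the difference, and for genes called in the further lists or with the smallest p there, of which 1 is not reported here. Alternatives were DESeq2 1.42.0, limma 3.58.1 on log2(TPM + 1) and log2(TPM + 0.1), which understates changes of low genes, other filters, factors and fits, and leaving out each library. The labels state no pairing of libraries by KO number. KO 2 minus KO 1 was little alike between the lines (correlation 0.052 over 8660 genes), which cannot exclude a pairing. The expected look at promoter letters was not run, as no promoter table of this build was at hand.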

Additional observations from a re-analysis of the deposited data

Results flagged for a closer look

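For 3 members every KO library of one line lay above its control and every KO library of the other below it. SLC2A3 had log2 ratios of 0.61 and 0.54 in CMM12 KO 1 and KO 2 against −0.02 and −0.63 in CMM2 KO 1 and KO 2, a difference of the knockout effects of 0.87 ± 0.44 (SE; edgeR adjusted p = 1). HK1 had log2 ratios of 0.72 and 0.23 in CMM12 against −0.16 and −0.56 in CMM2, a difference of 0.85 ± 0.45 (SE; edgeR adjusted p = 1). ENO2 had log2 ratios of −0.20 and −0.88 in CMM12 against 0.47 and 0.28 in CMM2, a difference of −0.89 ± 0.51 (SE; edgeR adjusted p = 1). These 3 are 8.33% of the 36 members, while 21.2% of all genes tested showed such opposite sides.

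Among the further lists the same held for several genes, such as PLOD2, HMOX1, BHLHE40, INSIG2 and LOXL2, as it did for 21.2% of all genes tested. LOXL2 had log2 ratios of −1.72 and −1.08 in CMM12 against 0.72 and 1.32 in CMM2, a difference of −2.42 ± 0.54 (SE; edgeR adjusted p = 1). DESeq2 called it (adjusted p = 0.0129, with 0.0129 to 1 over the alternatives).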

How the results depend on the processing

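No member was called in a knockout comparison under any alternative run, DESeq2 and the replicate block included. The call count between CMM12 and CMM2 was 11, and it was 17 with DESeq2, 7 with limma on log2(TPM + 1) without a filter, 11 with the replicate block, and 4 to 17 on leaving out a library (4 without the CMM12 control, 5 without CMM12 KO 2, 6 without CMM2 KO 1 or the CMM2 control, 7 without CMM12 KO 1, 17 without CMM2 KO 2). P4HA2, ADM and ENO2 were called in all 17 alternatives there, EGLN3 in 16, CA12 in 15, PFKFB3 in 13, EPAS1 in 12, ALDOC in 11, SLC2A3 in 10, PDK1 in 9, ANKRD37 in 8, HK1 in 6 and SLC2A1 in 4.

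The median log2 fold changes moved as follows on leaving out a library. Across lines the lowest and highest values came from leaving out a control, which leaves the knockout effect of the other line alone. The HIF genes gave 0.0735 to 0.2955 across lines (highest without the CMM12 control), 0.2091 to 0.3259 in CMM2 and 0.0155 to 0.0964 in CMM12 (lowest without CMM12 KO 1). The glycolysis genes gave 0.0365 to 0.4309 across lines (highest without the CMM2 control), −0.2439 to 0.1603 in CMM2 (lowest without CMM2 KO 1), 0.2837 to 0.4312 in CMM12 and −0.2905 to 0.0064 between lines. With limma on log2(TPM + 1), log2(TPM + 0.1) and log2(TPM + 1) without a filter, the median was −0.003, −0.0038 and −0.003 for the HIF genes in CMM12. In the same order of settings it was 0.3736, 0.374 and 0.3736 for the glycolysis genes in CMM12, and 0.0122, 0.0144 and 0.0122 for the glycolysis genes between lines. TPM scaling moved the median of all genes by 0.11 to 0.12 between lines and by −0.06 to −0.07 for KO against control in CMM12. The cause of these shifts with TPM was not tested. Of 791 values of single genes, 734 kept their side of the threshold, 42 lost a call, all of them between lines, 15 gained one, and 0 changed sign. Most of these genes were picked with all KO libraries on the same side or with lines that did not overlap, which favours a kept sign. In the knockout comparisons none of them was called in the main fit, so none could lose a call there. The labels state no pairing by KO number, so a call lost or gained under the block says nothing of the size of an effect. With 1 control per line, its deviation enters every value of that line.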
